A study of Canis lupus familiaris with 12 samples.

Results

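Granzymes, perforin and killer cell receptors are the genes by which natural killer (NK) cells and cytotoxic T cells recognise and destroy other cells. The set was given as 10 gene symbols. Of these, 9 were found by exact symbol among the 29822 genes of the deposited tables, namely GZMA, GZMB, GZMK, PRF1, KLRD1, KLRK1, KLRB1, NCR1 and NCR3. The tenth, NKG7, was not analysed here. All 9 passed the filter on low counts, as did 13358 genes in all.

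The cells were peripheral blood mononuclear cells (PBMCs, the lymphocytes and monocytes of blood) from healthy specific pathogen-free male beagles kept as blood donors, and no age is given for the dogs. Cells were cultured in RPMI1640 medium with serum, penicillin, streptomycin and 2-mercaptoethanol, and the agents were left on for 24 h. There were 4 groups of 3 libraries: untreated cells, cells with 5-aminolevulinic acid (ALA, the precursor of heme) at 1.0 mM, cells with 0.5 µg/ml of ConA (the lectin concanavalin A, a T cell mitogen), and cells with both agents. The titles number the libraries 1 to 3 within each group, and it is not stated that a number is 1 dog, so the p-values rest on library-to-library spread that could be technical only.

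Killing by granules works in a fixed order. Perforin (PRF1) forms pores in the membrane of the target cell, and granzymes, serine proteases stored in the same granules, pass into the target and cleave proteins that lead to its death. Whether an NK cell releases its granules is decided by paired activating and inhibitory receptors on its surface. Resting NK cells carry such receptors and stored granules, while resting T cells acquire most of their granzyme and perforin content after activation.

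The 12 libraries held 13390692 to 21517099 exon reads. Number 1 stood apart from numbers 2 and 3 in every group: mitochondrially encoded genes took 3.59 to 4.82% of its exon reads against 11.8 to 23.3%, and 52.4 to 54.2% of its exon reads spanned a splice junction against 36.1 to 43.4%. Each group has 1 library of each number, so values are given below by number, and tests were run with and without the number as a block. Markers of T cells (10 genes with values, summing to 760 to 1905 CPM, reads scaled to the normalised library size) and of B cells (6 genes, 1247 to 2462 CPM) were present in all 12 libraries. PBMC RNA is a mixture, so fewer cells of a type and less RNA per cell cannot be told apart.

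In CanFam3.1, the genome build named in the submitters' processing notes, the 3 granzymes lie on 3 chromosomes. GZMA (ENSCAFG00000006735) spans bases 42490069 to 42498464 of chromosome 2, with 5 annotated exons. GZMK (ENSCAFG00000018379) spans 60559216 to 60569533 of chromosome 4, with 6 exons. GZMB (ENSCAFG00000025287) spans 4470577 to 4512628 of chromosome 8, with 20 exons and 9 transcripts. The GZMB entry is thus 42052 bases long, against 8396 for GZMA and 10318 for GZMK, and whether it gathers reads of more than 1 protease gene was not tested.

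PRF1 (ENSCAFG00000014071) has 2 exons at 21498249 to 21500864 of chromosome 4. The 3 receptor genes of the C-type lectin family share a stretch of chromosome 27: KLRK1 (ENSCAFG00000025596) at 35639280 to 35658882, KLRD1 (ENSCAFG00000013459) at 35701185 to 35706720 and KLRB1 (ENSCAFG00000013612) at 36355986 to 36376501. The natural cytotoxicity receptor genes are apart from them and from each other, NCR1 (ENSCAFG00000023787) at 102686058 to 102690620 of chromosome 1 and NCR3 (ENSCAFG00000030919) at 1086841 to 1089481 of chromosome 12. Exon reads unique to the gene made up over 99.9% of the total for each of the 9.

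To describe how T cell stimulation changed these genes, ConA cultures were compared with untreated ones. GZMB rose 7.84-fold and GZMK fell 6.75-fold, so 2 granzymes moved in opposite directions. Without ConA 1 the log2 fold change of GZMB went from 2.97 to 2.30, and without untreated 1 that of GZMK went from −2.76 to −2.11, and both still passed. The receptor genes KLRD1 and NCR3 fell 3.02-fold and 2.31-fold. GZMA, PRF1, KLRK1, KLRB1 and NCR1 did not pass. Thus 1 of 9 rose and 3 fell at an adjusted p under 0.05 (quasi-likelihood F-test of edgeR), while 9.93% of all genes tested rose and 8.57% fell. The median log2 fold change of the 9 was −0.68, beside −0.05 over all genes.

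With the number as a block 2 of 9 rose and 5 fell, beside 21.3% and 21.2% of all genes. The additional calls were GZMA, which rose, and KLRK1 and KLRB1, which fell. Within numbers 2 members (GZMA and GZMB) were higher and 4 (GZMK, KLRD1, KLRB1 and NCR3) lower in all 3, beside 30.6% and 34.3% of all genes. Without the libraries of number 2 and without the block, none of the 9 passed and 0.405% of all genes did. With the block, 5 members and 27.9% of all genes passed without number 2. The log2 fold changes without number 2 and without the block were 2.999 for GZMB, −2.90 for GZMK and −1.72 for KLRD1.

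**Figure D1:**
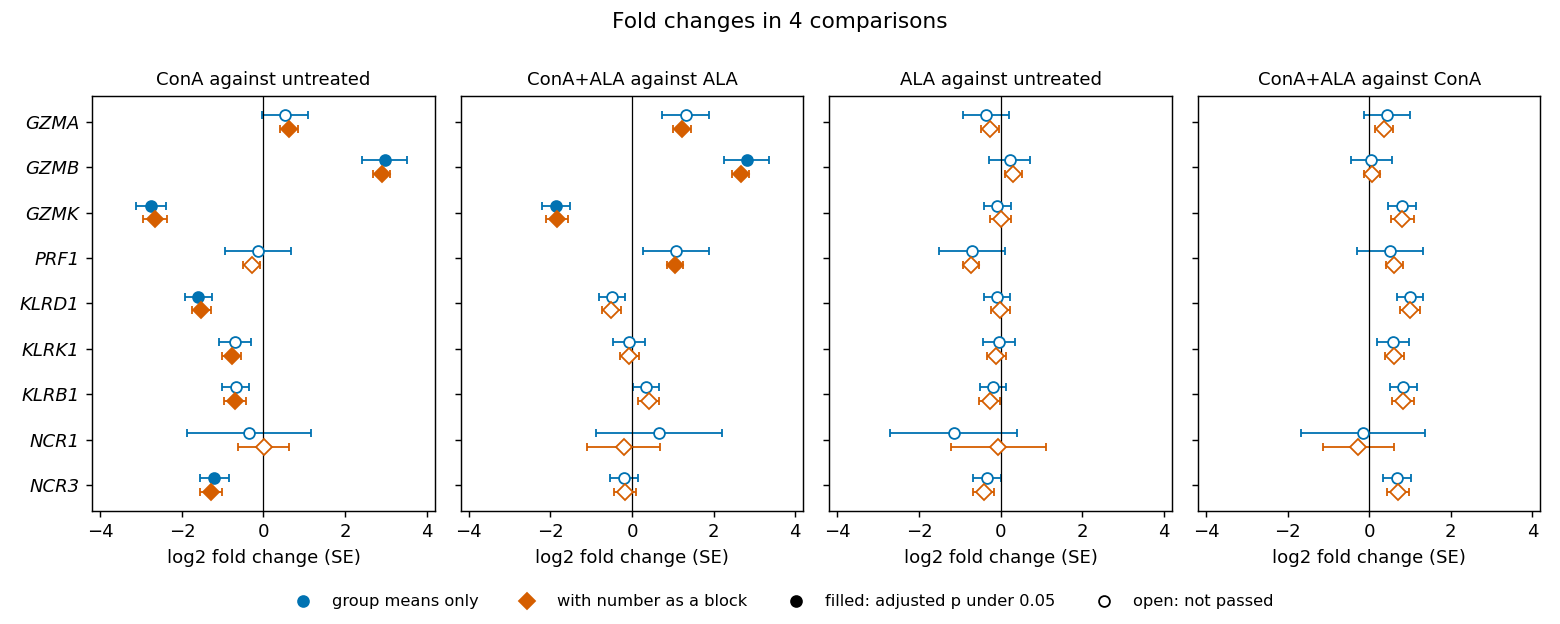
Log2 fold change (horizontal axis, bars are 1 SE) of the 9 genes in 4 comparisons, in the model of group means (circles) and with the library number as a block (diamonds), filled where the adjusted p is under 0.05. GZMB lies at 2.97 and GZMK at −2.76 with ConA against untreated, and no symbol is filled for ALA against untreated or for ConA+ALA against ConA.

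GZMB encodes the granzyme that cleaves after aspartate and activates caspases in the target cell. In libraries 1, 2 and 3 it stood at 52.1, 22.2 and 26.4 CPM in untreated cells and at 459, 175 and 155 CPM with ConA. It stood at 49.6, 30.2 and 37.7 CPM with ALA and at 465, 209 and 147 CPM with both agents. All 6 libraries with ConA lay above all 6 without it, and number 1 was the highest in each group. The log2 fold change was 2.97 ± 0.54 (SE, adjusted p = 0.0034) with ConA against untreated and 2.81 ± 0.54 (adjusted p = 0.0093) with both agents against ALA. Between ConA+ALA and ConA, its 2 highest groups, it differed by 0.06 ± 0.50, and between ALA and untreated by 0.22 ± 0.51 (adjusted p = 1.00 in each).

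GZMK encodes a tryptase-like granzyme. Its libraries 1, 2 and 3 held 135, 51.8 and 48.5 CPM in untreated cells and 11.4, 10.7 and 12.8 CPM with ConA. They held 90.0, 62.1 and 71.0 CPM with ALA and 20.7, 20.6 and 19.8 CPM with both. The 3 libraries with ConA alone were lowest, those with both agents came next, and neither range reached the others. The untreated level of number 1 was above that of any other library. The log2 fold change with ConA was −2.76 ± 0.36 (adjusted p = 0.00064), and with both agents against ALA it was −1.87 ± 0.35 (adjusted p = 0.0083).

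On the TPM scale (transcript abundance as given by the authors, divided by exon length so that genes can be compared), the 2 granzymes changed places. In untreated cells the TPM of GZMK was 7.12, 6.38 and 5.04 times that of GZMB in libraries 1, 2 and 3. With ConA the TPM of GZMB was 14.7, 5.98 and 4.43 times that of GZMK. By mean TPM, GZMB ranked 8th of the 9 genes in untreated cells (8.24 ± 6.39 TPM, SD, n = 3) and 1st with ConA (51.6 ± 50.4 TPM). GZMK ranked 2nd in untreated cells (54.3 ± 49.3 TPM) and 8th with ConA (5.45 ± 1.94 TPM). The exon length of the GZMB entry, 7855 bases, is long beside 2867 for GZMK, and its TPM rests on that length.

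GZMA encodes the tryptase of the granules, and its difference with ConA passed with the block only. Its libraries 1, 2 and 3 stood at 38.5, 16.4 and 11.1 CPM in untreated cells and at 50.3, 18.4 and 26.1 CPM with ConA. With ALA they stood at 24.8, 17.2 and 9.47 CPM, and with both at 74.0, 31.6 and 23.2 CPM. The groups overlapped, and within each number the ConA library was above the untreated one. The log2 fold change with ConA was 0.52 ± 0.57 (adjusted p = 0.58), and with the block 0.62 ± 0.22 (adjusted p = 0.033). Both agents against ALA gave 1.32 ± 0.57 (adjusted p = 0.19), and with the block 1.23 ± 0.22 (adjusted p = 0.00069).

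PRF1, the pore former, was higher in number 1 than in the other numbers under every treatment. Library 1 held 46.8, 28.8, 48.1 and 62.5 CPM in untreated, ALA, ConA and ConA+ALA cultures. Libraries 2 and 3 together ranged from 7.06 to 21.6 CPM. All 4 libraries of number 1 thus lay above all 8 of the other numbers. With ConA against untreated the log2 fold change was −0.14 ± 0.80 (adjusted p = 0.93), and with the block −0.29 ± 0.20 (adjusted p = 0.27). With both agents against ALA it was 1.08 ± 0.81 (adjusted p = 0.48) without the block, and PRF1 rose with the block (1.06 ± 0.20, adjusted p = 0.0011), by 1.12, 1.05 and 0.98 within numbers 1, 2 and 3.

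**Figure D2:**
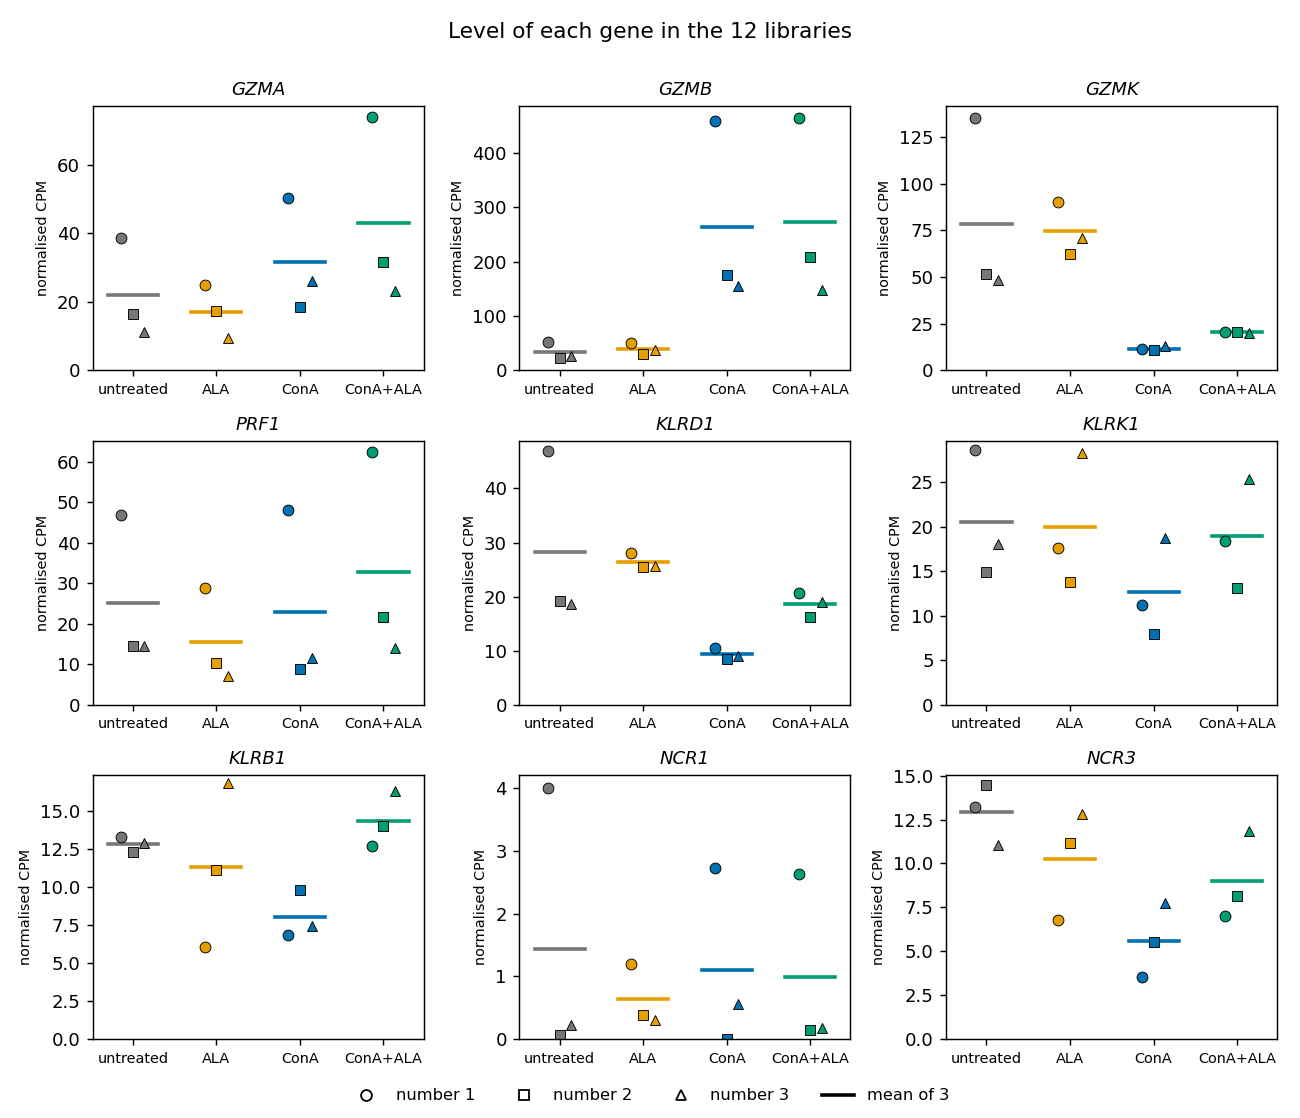
Normalised CPM (vertical axis, from 0, its own scale for each gene) of the 9 genes in the 12 libraries by treatment, with circles, squares and triangles for numbers 1, 2 and 3 and a bar for the mean of 3. GZMB is high in the 6 libraries with ConA, GZMK is low there, and number 1 is the highest point of PRF1 in every group.

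Among the receptors, KLRD1 (CD94) forms heterodimers with NKG2 chains and recognises non-classical class I molecules. Its libraries 1, 2 and 3 stood at 46.9, 19.1 and 18.6 CPM in untreated cells, at 28.0, 25.5 and 25.6 CPM with ALA, at 10.4, 8.48 and 9.10 CPM with ConA and at 20.8, 16.3 and 18.9 CPM with both. The 3 ConA libraries were the lowest and did not overlap any other group. The log2 fold change with ConA was −1.59 ± 0.33 (adjusted p = 0.0064), and it was −2.17, −1.17 and −1.03 within numbers 1, 2 and 3. In the order of means, untreated (28.2 ± 16.2 CPM), ALA (26.4 ± 1.43), both (18.7 ± 2.24) and ConA (9.34 ± 1.00), no 2 neighbours differed past the threshold.

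NCR3 (NKp30), an activating receptor, showed a similar order. It held 13.2, 14.5 and 11.1 CPM in untreated libraries 1, 2 and 3, against 3.54, 5.55 and 7.75 CPM with ConA, with no overlap. ALA libraries held 6.79, 11.2 and 12.8 CPM, and those with both agents 6.99, 8.15 and 11.9 CPM. The log2 fold change with ConA was −1.21 ± 0.35 (adjusted p = 0.034). This call was lost without untreated 1, untreated 2, ConA 1 or ConA 2 (adjusted p up to 0.10), and held with the block (−1.29 ± 0.27, adjusted p = 0.0012).

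KLRK1 (NKG2D), which recognises stress-induced ligands, and KLRB1 (CD161), a lectin-like receptor of NK and T cell subsets, changed less. KLRK1 stood at 28.7, 14.9 and 18.0 CPM in untreated libraries and 11.2, 8.01 and 18.7 CPM with ConA. The groups overlapped, and the log2 ratio in number 3 was 0.05, against −1.36 and −0.90 in numbers 1 and 2. KLRB1 stood at 13.3, 12.3 and 12.9 CPM in untreated libraries and 6.85, 9.83 and 7.46 CPM with ConA, with no overlap. The log2 fold changes were −0.70 ± 0.39 and −0.68 ± 0.33 (adjusted p = 0.24 and 0.18). With the block they were −0.78 ± 0.24 and −0.70 ± 0.27 (adjusted p = 0.016 and 0.047).

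NCR1 (NKp46) is a widely used marker of NK cells, and its exon reads came almost wholly from number 1. That number held 89, 29, 71 and 61 exon reads in untreated, ALA, ConA and ConA+ALA cultures. The other 8 libraries held 0 to 8 exon reads each, and the 0, in ConA 2, allows up to 0.238 CPM (3 reads, counting error only). No comparison of treatments passed for NCR1, and in those libraries a change was not detectable by exon reads at this depth.

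The numbers themselves were therefore compared, in the model with treatment and number together, a test chosen after the data were seen. GZMA, GZMB, PRF1, KLRK1 and NCR1 differed between numbers, 5 of 9, beside 48.5% of all genes, so the share is near the background. NCR1 passed the filter on low counts only through its reads in number 1, so its call adds no support. PRF1 averaged 46.6 CPM in number 1, 13.8 in number 2 and 11.8 in number 3 over the 4 treatments (adjusted p = 6.1e-07). GZMA averaged 46.9, 20.9 and 17.5 CPM (adjusted p = 4.9e-05), and GZMB 256, 109 and 91.7 CPM (adjusted p = 1e-04). KLRK1 had another order, with number 3 highest (19.0, 12.5 and 22.6 CPM, adjusted p = 0.0070). GZMK, KLRD1, KLRB1 and NCR3 did not pass (adjusted p from 0.054 to 0.21). Summed T cell markers stood at 1353 to 1905 CPM in number 1 and 760 to 1408 in the others. Summed B cell markers, mostly CD79A, stood at 1247 to 1709 and 1856 to 2462 CPM. The part of these markers in the difference was not tested.

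With ALA added to resting cells none of the 9 passed, whether with edgeR, with the block, with DESeq2 or with limma-voom. The median log2 fold change was −0.19, beside −0.00011 over all genes. No member had an unadjusted p under 0.05 without the block, where 0.801% of all genes were higher and 0.359% lower at that level. Over all genes 0% were called by edgeR and by limma-voom, 0.0449% with the block and 0.0299% with DESeq2. The member farthest from 0 apart from the sparse NCR1 was PRF1, at −0.70 ± 0.81, with the ALA library below the untreated one by 0.70, 0.48 and 1.03 within numbers 1, 2 and 3. It was the 1 member lower in all 3 numbers, and 0 were higher in all 3, beside 15.9% and 14.8% of all genes. In number 1, all 9 were lower with ALA (log2 ratios of −0.07 for GZMB to −1.71 for NCR1). These ratios share 1 pair of libraries, and untreated 1 was the highest library of all for GZMK and KLRD1. The share of all genes lower in this pair was not computed, so the count is no result about the set. Numbers 2 and 3 were mixed, and GZMB, GZMK and KLRD1 were higher in both. NCR1 had 1 and 4 reads in untreated 2 and 3, and 6 and 4 reads in ALA 2 and 3, too few to give a direction.

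Adding ALA to ConA-stimulated cells was compared with ConA alone. No member passed with edgeR, with the block, with DESeq2 or with limma-voom. Of all genes 0% were called by edgeR and by limma-voom, 0.367% with DESeq2 and 0.554% with the block (0.337% higher and 0.217% lower). Of the 9, 8 had a fold change above 0, as did 46.1% of all genes, and the median was 0.59, beside −0.03 over all genes. KLRD1 (1.00 ± 0.33), KLRB1 (0.84 ± 0.33) and GZMK (0.81 ± 0.34) had unadjusted p of 0.0098, 0.025 and 0.036, and adjusted p = 1.00 in each. With the block the adjusted p were 0.079, 0.24 and 0.34. At an unadjusted p under 0.05 without the block, 1.98% of all genes were higher and 1.35% lower.

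Within numbers, KLRD1 was higher with both agents than with ConA alone by 0.99, 0.94 and 1.06 on the log2 scale in numbers 1, 2 and 3, and KLRK1 by 0.72, 0.71 and 0.44. KLRB1 was higher by 0.89, 0.51 and 1.13, GZMK by 0.86, 0.95 and 0.63, NCR3 by 0.97, 0.55 and 0.61, and PRF1 by 0.38, 1.29 and 0.27. In total 6 of 9 were higher in all 3 numbers and 0 were lower in all 3, beside 16.2% and 18.1% of all genes. The exceptions were GZMA, GZMB and NCR1. The ConA libraries enter both this comparison and the one with untreated cells, so a low or high ConA value moves the 2 in opposite directions. Neutrophil markers, summed over 4 genes of which CXCR2 was at 0 in both groups, stood at 37.8 to 46.0 CPM with ConA and 82.3 to 92.1 CPM with both. S100A8 made up most of that sum, at 37.5 to 43.6 and 66.9 to 82.4 CPM. S100A12 stood at 0 to 4.60 and 7.72 to 18.5 CPM. CSF3R overlapped, at 0.28 to 0.73 and 0.56 to 0.74 CPM. Monocyte markers (5 genes) stood at 49.2 to 206 and 87.9 to 281 CPM, and T cell markers at 760 to 1359 and 803 to 1353 CPM. Their part in these ratios was not tested.

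**Figure D3:**
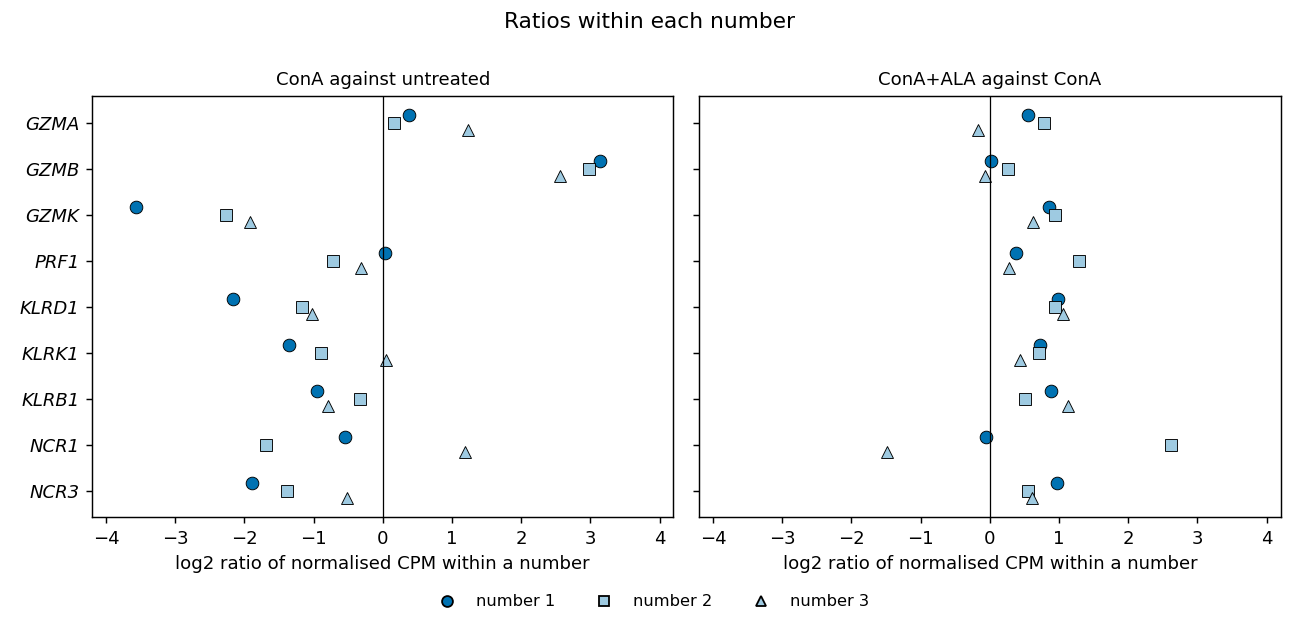
Log2 ratio of normalised CPM (horizontal axis) within each library number for the 9 genes, for ConA against untreated on the left and ConA+ALA against ConA on the right. On the left GZMA and GZMB are above 0 and GZMK, KLRD1, KLRB1 and NCR3 are below 0 in all 3 numbers, and on the right GZMK, PRF1, the 3 KLR genes and NCR3 are above 0 in all 3.

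In the presence of ALA, the ConA response was taken from ConA+ALA against ALA. GZMB rose and GZMK fell, 1 of 9 in each direction, beside 5.09% and 3.03% of all genes. With the block 3 rose (GZMA, GZMB and PRF1) and 1 fell (GZMK), beside 15.8% and 14.3%. The call of GZMB was lost without ALA 2 (adjusted p = 0.051), and its log2 fold change was 2.19 without ConA+ALA 1. The 4 receptors with more than 8 reads in every library did not pass, with KLRD1 at −0.50 ± 0.32, KLRK1 at −0.07 ± 0.39, KLRB1 at 0.35 ± 0.33 and NCR3 at −0.19 ± 0.35 (adjusted p from 0.40 to 0.95).

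Whether ALA altered the ConA response was tested by the interaction. None of the 9 passed with edgeR, the block, DESeq2 or limma-voom. Of all genes 0% passed with edgeR, the block or limma-voom, and 0.0299% with DESeq2. Without the block, KLRD1 (1.10 ± 0.45, unadjusted p = 0.033) and KLRB1 (1.03 ± 0.46, unadjusted p = 0.047) were the 2 members with an unadjusted p under 0.05 (adjusted p = 1.00 in each). At that level 0.883% of all genes lay above 0 and 0.779% below. With the block the members under 0.05 were PRF1 (unadjusted p = 0.00026), KLRD1 (0.0075), NCR3 (0.0088), KLRB1 (0.010) and KLRK1 (0.048), all above 0. Their adjusted p were 0.24 to 0.66, and the share of all genes at that level with the block was not computed. A difference between the ConA responses of the receptors with and without ALA was thus not shown.

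Intron reads give a second readout of the same libraries, since they come largely from unspliced RNA. They were fitted separately over 15305 genes. For GZMB, untreated libraries 1, 2 and 3 had 202, 112 and 90 intron reads, and ConA libraries 364, 180 and 186. Introns thus held 17.1% of GZMB gene reads in untreated cells and 4.28% with ConA. Over all genes the intron share was also lower with ConA in each number, at 32.7, 39.7 and 36.2% in untreated libraries 1, 2 and 3 and 29.1, 35.1 and 34.5% with ConA. The mitochondrial share of exon reads was higher, at 3.98, 12.7 and 13.1% untreated and 4.48, 23.3 and 17.2% with ConA. The part of either in the GZMB values was not tested. The log2 fold change of GZMB introns was 0.96 ± 0.41 (adjusted p = 0.20), and with the block 1.00 ± 0.23 (adjusted p = 0.0025), while its exon reads with the block stood at 2.90 ± 0.21. The difference between exon and intron changes was not tested.

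Of the 5 members whose exon reads fell with the block, GZMK, KLRD1 and NCR3 fell by intron reads too. KLRK1 and KLRB1 introns stood at −0.66 and −0.43 and did not pass (adjusted p = 0.13 and 0.32). GZMK introns stood at −1.89 ± 0.38 (adjusted p = 0.00098) beside −2.65 ± 0.29 for exons. KLRD1 introns stood at −2.08 ± 0.25 (adjusted p = 2.2e-05) beside −1.52 ± 0.24, and NCR3 introns at −1.83 ± 0.25 (adjusted p = 2.9e-05) beside −1.29 ± 0.27. KLRD1 and NCR3 carried a large intron share, 58.1% and 56.7% of gene reads in untreated cells and 48.0% and 45.5% with ConA. In all, 1 of 9 rose and 3 fell by intron reads with the block, beside 16.5% and 16% of all genes. Without the block KLRD1 fell (−2.21 ± 0.56, adjusted p = 0.034) and no other member passed, beside 4.16% and 3.14%. Intron reads of NCR1 were less confined to number 1 than its exon reads. Number 1 held 38, 16, 24 and 31 in untreated, ALA, ConA and ConA+ALA cultures, and libraries of numbers 2 and 3 held 4 to 28. As strand use is not stated, intron reads of overlapping transcripts cannot be told apart.

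**Figure D4:**
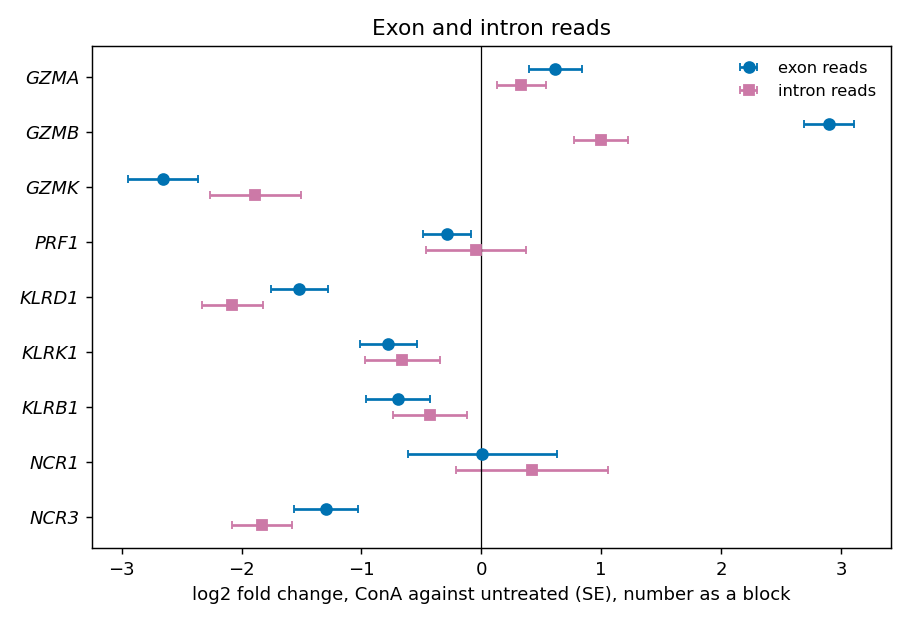
Log2 fold change with ConA against untreated (horizontal axis, bars are 1 SE, number as a block) from exon reads (circles) and intron reads (squares) of the 9 genes. GZMB has 2.90 by exon reads and 1.00 by intron reads, while KLRD1 and NCR3 lie lower by intron than by exon reads.

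The pathway around these genes was described with 66 other genes in 8 lists, of which 54 were tested. With ConA against untreated 11 rose and 3 fell, beside 9.93% and 8.57% of all genes. With the block 18 rose and 9 fell, beside 21.3% and 21.2%. The same shares of all genes stand beside the counts of each list. Of 5 other granule proteins none passed, with or without the block. The nearest to passing were CST7, an inhibitor of granule cathepsins (−0.81 ± 0.38, adjusted p = 0.17), and the cathepsin CTSW (0.58 ± 0.31, adjusted p = 0.23). Of 8 genes of granule release 1 fell, the vesicle fusion protein VAMP8 (−0.60 ± 0.19, adjusted p = 0.046). That call was lost in 10 of the 12 fits without a single library, those without ConA 1 and ALA 3 excepted (adjusted p up to 0.16). With the block 2 release genes rose and 2 fell, VAMP8 among the latter (−0.59 ± 0.15, adjusted p = 0.0047).

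Inhibitors of granule proteases rose with ConA, 3 of 3, beside 9.93% of all genes. SERPINB9, the intracellular inhibitor of granzyme B, rose by 1.38 ± 0.41 (adjusted p = 0.037), and the related serpins SERPINB6 and SERPINB1 by 1.36 ± 0.30 and 0.84 ± 0.21 (adjusted p = 0.0087 and 0.017). Without the block, SERPINB9 did not pass once any ConA library, untreated 2, untreated 3 or ConA+ALA 2 was left out (adjusted p up to 0.13). Nor did SERPINB1 without untreated 1, untreated 2 or ConA 3 (up to 0.069). With the block all 3 rose, beside 21.3% of all genes. SERPINB9 stood at 1.44 ± 0.18, SERPINB6 at 1.37 ± 0.29 and SERPINB1 at 0.85 ± 0.13 (adjusted p = 1.9e-05, 0.0034 and 0.00013). Of 4 death ligands 2 rose, LTA (3.64 ± 0.35, adjusted p = 0.00014) and TNF (2.57 ± 0.41, adjusted p = 0.0016). FASLG, the ligand of the death receptor Fas, stood at 0.71 ± 0.30 (adjusted p = 0.13) and rose with the block (adjusted p = 0.029).

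Of 13 other receptors of NK and cytotoxic T cells 2 rose and 1 fell (3 and 4 with the block). The costimulatory receptor TNFRSF9 (4.60 ± 0.75, adjusted p = 0.0018) and the inhibitory receptor LAG3 (3.05 ± 0.48, adjusted p = 0.0015) rose. KLRG1, an inhibitory lectin-like receptor, fell by 2.26 ± 0.43 on the log2 scale (adjusted p = 0.0042). TNFRSF9 stood at 3.61 without ConA 1 and LAG3 at 3.64 without untreated 2, and both still passed. CX3CR1, a chemokine receptor of mature killer cells and of monocytes, had 262, 6 and 16 reads in untreated libraries 1, 2 and 3 and 6, 0 and 0 with ConA. It did not pass without the block (adjusted p = 0.072) and fell with it (adjusted p = 0.0011), and its fitted fold change is no measure of size with libraries at 0. None of the 3 tested receptor adaptors passed. SH2D1A, the nearest, stood at −0.78 ± 0.26 (adjusted p = 0.056, and 0.0080 with the block).

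Of 10 transcription factors 1 rose and 1 fell (4 and 2 with the block). TBX21 (T-bet), which drives cytotoxic and type 1 programs, rose by 2.90 ± 0.38 (adjusted p = 0.00064). ZNF683 (Hobit), a factor of resident killer cells, stood at −1.89 ± 0.56 (adjusted p = 0.035), a call lost without untreated 1 (−0.97), ConA 1, ConA 2, ConA 3 or ConA+ALA 2 (adjusted p up to 0.21). Of 8 cytokine receptors 3 rose, IL12RB2 (1.86 ± 0.28, adjusted p = 0.0012), IL15RA (2.39 ± 0.55, adjusted p = 0.012) and IL21R (0.88 ± 0.17, adjusted p = 0.0044). IL15RA stood at 3.03 without untreated 3, and IL21R did not pass with total gene reads (adjusted p = 0.058). With both agents against ConA alone, 0 of the 54 passed with edgeR, and with the block TBX21 fell (−1.67 ± 0.19, adjusted p = 0.0032). TBX21 also fell with DESeq2 (−1.62 ± 0.38, adjusted p = 0.0092). Over all genes 0% passed with edgeR, 0.217% fell with the block, and 0.367% passed in either direction with DESeq2.

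**Figure D5:**
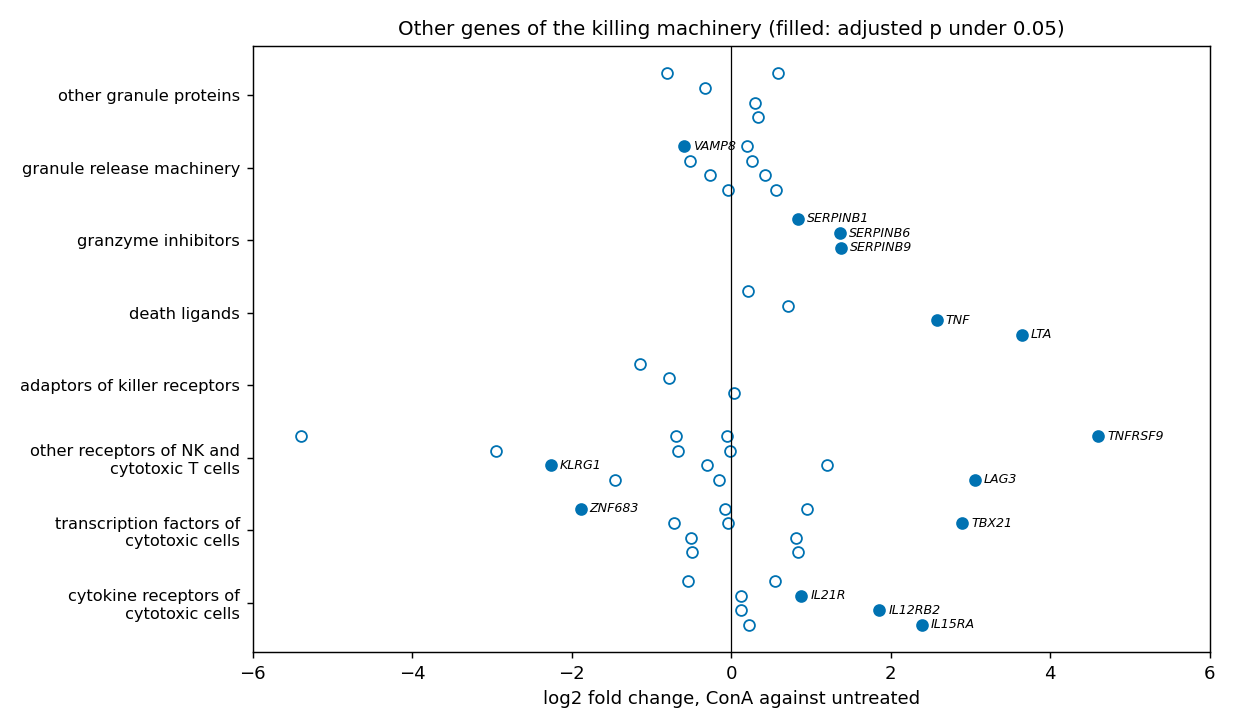
Log2 fold change with ConA against untreated (horizontal axis) of 54 other genes of the killing machinery in 8 lists (vertical axis, offset within a list for legibility), filled and named where the adjusted p is under 0.05. TNFRSF9, LTA, LAG3 and TBX21 lie farthest to the right among named genes, and KLRG1 and ZNF683 farthest to the left.

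Markers of the cells that could carry these genes also moved with ConA. Of 10 T cell markers 1 rose and 2 fell, beside 9.93% and 8.57% of all genes (1 and 6 with the block, beside 21.3% and 21.2%). CD28 (1.54, adjusted p = 0.012), a costimulatory receptor, rose, and CD5 (−1.28, adjusted p = 0.0013) and the kinase LCK (−1.01, adjusted p = 0.029) fell. CD28 did not pass with total gene reads (1.20, adjusted p = 0.18). LCK did not pass without untreated 1, ConA 2 or ConA 3 (adjusted p up to 0.12). CD8A, named after its values were seen as the coreceptor of cytotoxic T cells, stood at −1.36 ± 0.57 (adjusted p = 0.12) and fell with the block (adjusted p = 0.00047). A lower level with ConA was not particular to CD8A. CD4 stood at 68.7, 15.1 and 17.1 CPM in untreated libraries 1, 2 and 3 and at 14.4, 5.07 and 6.40 CPM with ConA. Summed T cell markers ranged from 1096 to 1905 CPM in untreated cells and 760 to 1359 CPM with ConA. Of 6 B cell markers 2 fell, and 4 in the block model. Their median log2 fold change was −0.83, while their sum ranged from 1453 to 2314 CPM in untreated cells and 1355 to 2344 CPM with ConA. CD79A made up most of that sum (1328 to 1883 CPM untreated, 1289.5 to 2075 CPM with ConA), so the sum says little about the other B cell markers. Summed monocyte markers ranged from 331 to 656 CPM in untreated cells and 49.2 to 206 CPM with ConA, and neutrophil markers from 117 to 201 and 37.8 to 46.0 CPM. Their part in the fall of GZMK, KLRD1 and NCR3 was not tested.

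Finally, the genes with the most similar profile were listed for each member, by Pearson's r of log2 CPM over the 12 libraries, which share treatment and number. None of the 27 nearest genes was itself a member, and r ranged from 0.81 to 0.99. GZMB was nearest to the translation factor EIF3B (0.99) and to AATF and BYSL (0.98 each). GZMK was nearest to PRKAG2, EMB and MACF1 (0.98 each), GZMA to DNAAF5 (0.98) and PRF1 to DCAF8 (0.96). KLRD1 was nearest to S100A8 (0.95), a calcium-binding protein of neutrophils and monocytes, NCR3 to CSTA (0.94) and NCR1 to UBASH3B (0.96). The KLRK1 and KLRB1 profiles were less closely matched, by RUNX2 (0.90) and RNF157 (0.83). S100A8 itself stood at 0.90 ± 0.24 with both agents against ConA (adjusted p = 0.67, and 0.012 with the block).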

How the data were processed

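Per the labels, oligo-dT selected mRNA of canine PBMCs gave 12 Illumina libraries. Per the submitters' processing notes the build is CanFam3.1 and a tool is bcl2fastq. Aligner, counter and strand setting: not given in the sources used here. The deposited tables give counts of exon, intron and gene reads with no normalization, and TPM, the authors' own values per exon length. Tests used total exon counts and edgeR 4.0.16, run under R 4.3.3 (TMM, filterByExpr, robust quasi-likelihood F-test, 12 libraries, 4 group means), with Benjamini-Hochberg adjustment over 13358 genes. CPM are on TMM-scaled library sizes.

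The numbers in the titles pair the libraries. Deviations from group means correlated at 0.32 to 0.68 in all 18 same-numbered pairs (threshold 0.1), and at −0.44 to 0.16 in the others. No 2 of the 12 tables held identical counts. The biological coefficient of variation was 0.422 without and 0.217 with the number as a block.

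Alternatives were DESeq2 1.42.0, limma-voom (limma 3.58.1), other size factors, filters, read types and libraries left out. Scripts were tested on simulated data. Named genes were the members, up to 4 of each list by smallest unadjusted p, and the 3 nearest profiles. The members and lists were chosen with earlier results of these data known. Within-number ratios used a prior count of 0.5.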

Additional observations from a re-analysis of the deposited data

Results flagged for a closer look

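The level of PRF1 was lower with ALA than without in all 3 numbers of resting cells, and higher with ALA than without in all 3 numbers of ConA-stimulated cells. The interaction was 1.22 ± 1.14 on the log2 scale (unadjusted p = 0.31, adjusted p = 1.00, edgeR's quasi-likelihood test). With the number as a block it was 1.35 ± 0.29 (unadjusted p = 0.00026, adjusted p = 0.24), so the difference did not pass in either fit. PRF1 passed in neither comparison (−0.70 ± 0.81 and 0.52 ± 0.80, adjusted p = 1.00 in each). With the block the values were −0.73 ± 0.20 and 0.62 ± 0.20 (adjusted p = 0.44 and 0.25). Leaving out 1 library, without the block, gave −1.54 to 0.11 and −0.37 to 1.69. Groups of 3 were not examined for outlying libraries.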

How the results depend on the processing

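With the replicate block 7 members passed with ConA against untreated, in place of 4, beside 42.5% of all genes in place of 18.5%. With ConA+ALA against ALA 4 passed, in place of 2, beside 30.1% in place of 8.12%. The block changed no call of the other 3 comparisons of treatments. Without all libraries of number 2 the counts without the block were 0 and 0, beside 0.405% and 0% of all genes, and without number 3 they were 2 and 0, beside 7.53% and 1.01%. With the block and number 1, 2 or 3 left out, 4, 5 and 5 members passed with ConA against untreated, in place of 7, beside 27.3%, 27.9% and 40.1% of all genes. With ConA+ALA against ALA 4 passed each time, beside 15.7%, 15.9% and 28.2%. NCR1 was not among the genes fitted without number 1. Leaving out 1 library, without the block, gave 3 to 4 calls with ConA, beside 11.6 to 18% of all genes. It gave 1 to 2 with ConA+ALA against ALA, beside 3.17 to 8.6%. The test between numbers, 5 calls, gave 1 without number 1 and 8 with total gene reads, beside 48.5%, 7.01% and 56% of all genes. Without number 2 or 3 and without the block, and between numbers, the shares of all genes moved in the same direction as the members' counts. The cause was not tested. Total gene reads, the fits with the block and a number left out, and the test between numbers were chosen after seeing the data.

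Some log2 fold changes that passed in no setting changed sign. For NCR1 the replicate block gave 0.0095 with ConA against untreated, −0.20 with ConA+ALA against ALA and −0.21 for the interaction. For NCR1 limma-voom gave 0.020 with ConA, 0.19 with ALA, 0.16 with ConA+ALA against ConA, −0.0032 against ALA and −0.023 for the interaction. With ALA against untreated, GZMK gave 0.0027 with the block and 0.075 with limma-voom, and KLRD1 0.019 with limma-voom. Total gene reads gave 0.022 for PRF1 with ConA and −0.0072 for GZMB with ConA+ALA against ConA.

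Signs also changed when a library or a number was left out, here with the lowest and highest log2 fold change. With ConA against untreated, PRF1 ranged from −1.31 to 0.67 and NCR1 from −2.30 to 2.86. With ALA against untreated, GZMA ranged from −0.73 to 0.33, GZMB from −0.0056 to 0.69, GZMK from −0.33 to 0.57 and PRF1 from −1.54 to 0.11. In the same comparison KLRD1 ranged from −0.33 to 0.49, KLRK1 from −0.47 to 0.35, KLRB1 from −0.59 to 0.14 and NCR1 from −2.03 to 2.06. With ConA+ALA against ConA, GZMA ranged from −0.22 to 0.96, GZMB from −0.57 to 0.73, PRF1 from −0.37 to 1.69 and NCR1 from −2.73 to 1.81. With ConA+ALA against ALA, KLRK1 ranged from −0.33 to 0.27, NCR1 from −1.92 to 1.53 and NCR3 from −0.43 to 7.9e-05. For the interaction, GZMB ranged from −0.79 to 0.52 and NCR1 from −2.20 to 2.96.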
